A study of Mus musculus with 8 samples.

Results

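Bcl11a, Bcl11b, Neurod2, Zbtb20 and Zeb2 are transcription factor genes used by projection neurons, the excitatory neurons of the cortex that send axons to other brain areas. They were followed here through every probe set of the array that carries one of these 5 gene symbols, a probe set being a group of short DNA probes for a single transcript. The rule gave 20 of 22511 probe sets, and the 5 genes were 5 of 9607 genes named on the array. The genes were selected on their measured signals in neonatal cortex against neonatal cerebellum, where probe sets of theirs were higher in cortex, so that this difference is given as a description only. RNA came from mice heterozygous for T9H, a translocation between chromosomes 7 and 15, and each sample carried 1 of 2 complementary duplications. Paternal-7 samples had a paternal duplication of proximal chromosome 7 and a maternal one of proximal chromosome 15, and maternal-7 samples had the reverse. Each duplication was measured on 1 Affymetrix 430B array in whole brain at 13.5 and at 15.5 days post coitum (dpc), in neonatal cortex and in neonatal cerebellum, which made 8 arrays in 4 contexts. The labels also call the cortex samples forebrain, and they give no strain, sex, postnatal day, number of animals or pooling, and no unduplicated control was part of the series. With 1 array per duplication in each context, the p-values rest on how the pairs of arrays depart from the fitted duplication difference. That spread mixes array-to-array noise, which may be technical, with any duplication effect that varies between contexts.

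Bcl11a and Bcl11b (also known as Ctip1 and Ctip2) encode related zinc finger proteins that mainly repress transcription. Bcl11b directs deep-layer neurons to form the corticospinal tract and is also a factor of striatal medium spiny neurons, while Bcl11a acts in newly formed cortical neurons and in the sensory areas. Neurod2 is a basic helix-loop-helix activator that binds E-box sequences and drives the maturation of excitatory neurons. Zbtb20 is a BTB-domain zinc finger repressor known for its part in forming the hippocampus and for its presence in astroglia. Zeb2 (also called Sip1) is a zinc finger and homeodomain repressor that binds Smad proteins and E-box-like sequences, and it acts in young cortical neurons and in migrating interneurons.

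None of the members lies on a duplicated chromosome, since Bcl11a and Neurod2 are genes of chromosome 11, Bcl11b of 12, Zbtb20 of 16 and Zeb2 of 2. The 250 bases before the RefSeq start (build GRCm38.p6) are shown for the 4 genes that have 1 start in the RefSeq promoter table, because Bcl11a, Bcl11b and Neurod2 followed similar courses over the arrays and Zbtb20 differed between its probe sets. All are written 5′ to 3′ on the gene's strand. RefSeq's gene table begins Bcl11a at 24076564 and Zbtb20 at 42875689, upstream of the windows shown. For these genes the window therefore lies inside the annotated gene and need not precede its first start. Capitals mark the E-box CANNTG and the motif TGACCA on either strand, which is known as a BCL11A binding motif from human blood cells.
Bcl11a, chr11:24080445-24080694, plus strand: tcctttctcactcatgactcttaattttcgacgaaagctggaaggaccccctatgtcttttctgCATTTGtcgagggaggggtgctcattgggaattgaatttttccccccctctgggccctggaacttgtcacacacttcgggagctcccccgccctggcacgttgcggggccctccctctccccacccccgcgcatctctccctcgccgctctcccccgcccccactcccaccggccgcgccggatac
Bcl11b, chr12:108003415-108003664, minus strand: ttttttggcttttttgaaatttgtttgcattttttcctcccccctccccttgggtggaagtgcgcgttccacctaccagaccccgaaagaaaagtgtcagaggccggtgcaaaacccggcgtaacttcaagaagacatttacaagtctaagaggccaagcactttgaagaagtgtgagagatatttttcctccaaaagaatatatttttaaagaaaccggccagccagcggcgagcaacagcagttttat
Neurod2, chr11:98329646-98329895, minus strand: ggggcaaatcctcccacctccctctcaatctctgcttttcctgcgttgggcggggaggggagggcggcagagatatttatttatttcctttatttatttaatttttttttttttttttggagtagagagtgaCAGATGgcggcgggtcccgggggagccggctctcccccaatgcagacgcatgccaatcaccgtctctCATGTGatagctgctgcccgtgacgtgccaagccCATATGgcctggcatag
Zbtb20, chr16:43247034-43247283, plus strand: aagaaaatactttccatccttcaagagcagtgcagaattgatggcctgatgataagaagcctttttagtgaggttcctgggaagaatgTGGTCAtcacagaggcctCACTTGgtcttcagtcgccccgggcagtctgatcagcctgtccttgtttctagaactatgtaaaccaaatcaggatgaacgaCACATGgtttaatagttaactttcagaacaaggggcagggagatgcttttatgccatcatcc
The E-box occurred 3 times before Neurod2, 2 times before Zbtb20, 1 time before Bcl11a and 0 times before Bcl11b. Of 32851 windows of this length before the starts of 27025 genes, 66.2% held at least 1 E-box. One of the Neurod2 matches was CAGATG, an E-box form, read on both strands, that 14.4% of the windows held. The BCL11A motif, also read on both strands, occurred 1 time before Zbtb20 and 0 times before the others, against 11.4% of all windows. Zeb2 has 4 starts in the table, and their 4 windows held 0 matches to the E-box or to the BCL11A motif. The E-box form bound by Zeb proteins, CACCTG, was therefore absent as well, and 17.2% of all windows held it. Both named E-box forms are counted within the general E-box. These matches describe letters and are no evidence of binding.

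Of the 20 probe sets, 17 entered the tests, with a signal above the array's median on at least 2 of 8 arrays. They were 4 of 5 for Bcl11a, 3 of 3 for Bcl11b, 1 of 2 for Neurod2, 6 of 6 for Zbtb20 and 3 of 4 for Zeb2. Within each gene the probe sets are lettered by falling mean signal. The remaining 3, Bcl11a E, Neurod2 B and Zeb2 D, exceeded the array median on 0 of 8 arrays, with highest signals of 159, 143 and 112 units, and are not described further. Array medians ran from 229.8 to 285.7 signal units, and both arrays of a context correlated at 0.891 to 0.953 across tested probe sets. Levels of different probe sets cannot be set against each other, because each binds its target with its own efficiency.

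Bcl11b was the member whose probe sets followed one course most closely. Probe set A read 2948 (paternal-7) and 4260 (maternal-7) signal units at 13.5 dpc, 6441 and 5624 at 15.5 dpc, 9196 and 9541 in neonatal cortex, and 2571 and 2340 in neonatal cerebellum. The cortex arrays were the highest, the 15.5 dpc arrays came next and the cerebellum arrays were the lowest, with no overlap between neighbouring contexts. Probe sets B and C had the same order without overlap. In C the signals were 2699 and 3112 in cortex and 644 and 662 in cerebellum. Cortex minus cerebellum stood at 1.91, 1.89 and 2.05 log2 units in A, B and C.

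Bcl11a had the same order of mean signals in its 2 brightest probe sets. A read 1047 and 1770 signal units (paternal-7 and maternal-7) at 13.5 dpc, 2628 and 3351 at 15.5 dpc, 3371 and 3212 in cortex, and 599.8 and 879 in cerebellum. Here cortex and 15.5 dpc arrays overlapped, while 13.5 dpc and cerebellum lay below both and apart from each other. B read 2336 and 1903 in cortex against 520.3 and 474 in cerebellum. C and D, which the platform annotation lists for 1 shared source sequence, gave smaller differences between cortex and cerebellum, 1.17 and 0.65 log2 units, against 2.09 for A and 1.97 for B. In D the maternal-7 cerebellum array (636 units) came close to the paternal-7 cortex array (664 units), while the paternal-7 cerebellum array read 277. C carries the suffix x, which Affymetrix gives to probe sets with probes that can match other sequences.

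Neurod2 was measured by probe set A alone. It read 2169 and 2145 signal units (paternal-7 and maternal-7) at 13.5 dpc, 6157 and 5828 at 15.5 dpc, 5620 and 6037 in cortex, and 1653 and 2033 in cerebellum. Whole brain at 15.5 dpc and neonatal cortex overlapped at the top, and 13.5 dpc and cerebellum lay below them, without overlap between those lower contexts. Cortex minus cerebellum was 1.64 log2 units. Neurod2 is also known as a factor of cerebellar granule neurons, and its cerebellum signals were well above the array medians.

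Zbtb20 had 6 tested probe sets with the highest signals in cortex in each of them, but the size of the difference varied widely. Probe set D read 67.5 and 43.1 units (paternal-7 and maternal-7) at 13.5 dpc, 94.6 and 174 at 15.5 dpc, 1936 and 1845 in cortex, and 137 and 115 in cerebellum. Both cortex arrays stood far above the array median and all 6 others below it, so that cortex was at least 8.13-fold higher than cerebellum. Probe set A, the brightest, read 3839 and 3637 in cortex against 1676 and 2029 in cerebellum, and was well above the array medians at 13.5 dpc too (1560 and 995). Cortex minus cerebellum was 0.996 in A, 1.26 in B, 1.89 in C, 3.40 in D, 1.74 in E and 0.75 log2 units in F. F stayed between 209.9 and 396 units on all arrays, close to the array medians.

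The 3 tested probe sets of Zeb2 each had a different order of contexts. A read 879 and 1554 units (paternal-7 and maternal-7) at 13.5 dpc, 848 and 1279 at 15.5 dpc, 4152 and 3541 in cortex, and 741 and 662 in cerebellum. Its cortex signals stood apart from the other 6, and both embryonic ages overlapped. B had its highest signals at 13.5 dpc, 1265 and 1004 units, against 950.2 and 718 in cortex and 449.7 and 650.2 in cerebellum. C read 572 and 489 in cortex and lay below the array median in cerebellum (153 and 146), at least 2.27-fold lower there. The cortex minus cerebellum differences were 2.36, 0.56 and 1.496 log2 units in A, B and C.

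**Figure D1:**
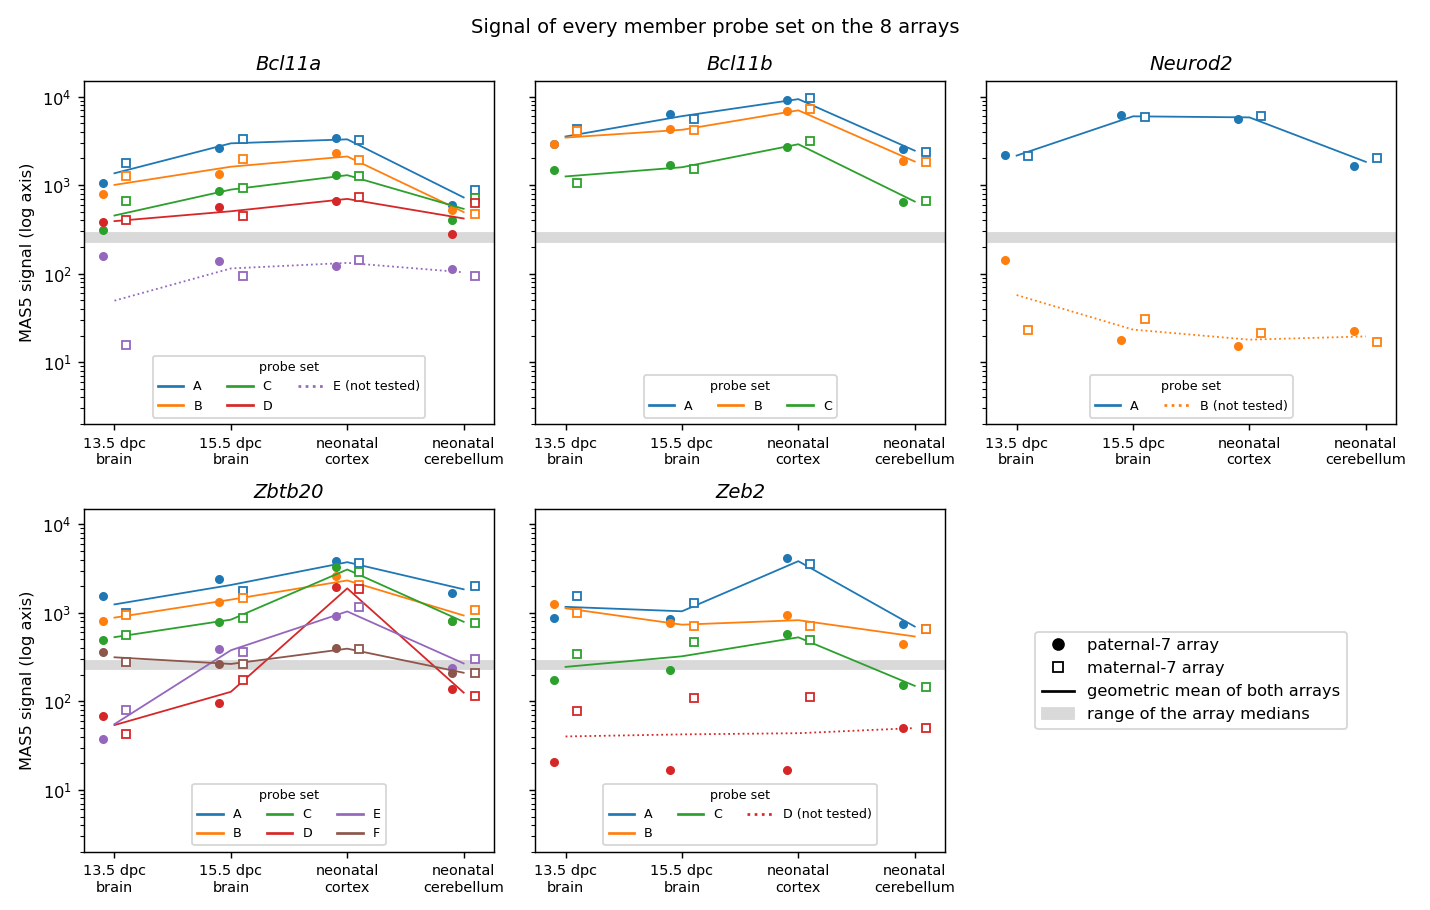
MAS5 signal (log axis) of all 20 probe sets of the 5 genes in the 4 contexts. Filled circles are paternal-7 and open squares maternal-7 arrays, lines join the geometric means, dotted lines mark the 3 probe sets that were not tested, and the grey band is the range of the array medians. In Zbtb20 D only the cortex arrays (1936 and 1845 units) rise above the band, while the 3 Bcl11b probe sets run side by side.

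Over all 17 tested probe sets, both cortex arrays exceeded both cerebellum arrays, which 19.6% of the 13221 tested probe sets did (21.4% had both cortex arrays lower), and the differences ran from 0.56 to 3.40 with a median of 1.74 log2 units, against a median of -0.01 over all tested probe sets. Since the choice of genes used this contrast, nothing is read from it. In 13 of 17 both cortex arrays also exceeded the other 6 arrays, against 5.79% of all tested probe sets. That count shares the cortex arrays with the choice of genes and is likewise a description. The other 4 were Bcl11a A and B, Neurod2 A and Zeb2 B. In bulk tissue, a lower signal from fewer cells of a type and one from less RNA per cell cannot be told apart.

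Markers of the striatum, which shares Bcl11b, had a higher summed signal in the cortex arrays. Of 17 listed striatum markers 8 had a probe set, and their signals summed to 12293 and 11105 units (paternal-7 and maternal-7) in cortex against 6974 and 7137 in cerebellum. Drd1 (2.36), Gng7 (1.503) and Pde10a (1.06) carried this sum, while Rgs9, Tac1, Ebf1, Ikzf1 and Foxp4 lay between -0.08 and 0.32 log2 units, and the median of the 8 was 0.25. Drd1, a dopamine receptor gene and a defining marker, averaged 1185 units in cortex and 181 in cerebellum. Cortical interneuron markers had 4 of 19 genes on the array, summing to 5396 and 5719 units in cortex and 5327 and 6543 in cerebellum, and their defining Dlx and Lhx6 genes were not among those 4. For Zbtb20, the 6 of 10 hippocampus markers with a probe set, which include Zbtb20 itself, summed to 5723 and 5074 in cortex and 3503 and 3929 in cerebellum. Without Zbtb20 the other 5 summed to 1885 and 1437 in cortex and 1827 and 1899 in cerebellum. Of the astrocyte markers, 6 of 12 had a probe set and summed to 15157 and 14197 in cortex and 16546 and 16256 in cerebellum. The cerebellum label was set against 21 listed markers, of which 6 had a probe set, 4 were tested and 3 were lower in cortex. They were led by Tfap2b, a factor of cerebellar inhibitory progenitors, with 6976 units on average in cerebellum and 351 in cortex, while Zic1 read 4965 in cortex and 4616 in cerebellum. Of 8 tested projection neuron markers that are no factors, 6 were higher in cortex, from Unc5d (0.02) to Slc17a7, a vesicular glutamate transporter gene (2.34 log2 units, with 1671 units in cortex and 267 in cerebellum), and Nrn1 (-1.06) and Mdga1 (-0.51) were lower. The part of these cell types in the members' signals was not tested.

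The differences between the embryonic ages come from arrays that the choice of genes had not used. Their standard errors and p-values draw on the spread over all 8 arrays, the neonatal ones included. Neurod2, Bcl11a and Zbtb20 each had a probe set that was higher at 15.5 than at 13.5 dpc, and no member probe set was called lower. With limma, a linear model for arrays with Benjamini-Hochberg adjustment over all tested probe sets, 3 of 17 were called at a threshold of 0.05, against 6.59% of all tested probe sets. Called higher were 3.52% and called lower 3.07%. The signals of Neurod2 A given above amounted to a log2 difference of 1.45 ± 0.19 (SE, adjusted p = 0.0161), which is 2.73-fold on the scale with a pseudocount. Zbtb20 E read 393 and 363 units (paternal-7 and maternal-7) at 15.5 dpc against 38.0 and 80.4 at 13.5 dpc, a log2 difference of 1.91 ± 0.21 (adjusted p = 0.0111). Since its 13.5 dpc signals lay below the array median, this is at least 1.38-fold. Bcl11a A differed by 1.09 ± 0.23 (adjusted p = 0.0447) and was 2.13-fold higher at 15.5 dpc.

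The other probe sets of these genes did not pass the test for age. Bcl11a B, C and D stood at 0.65 ± 0.28, 0.88 ± 0.29 and 0.33 ± 0.32 log2 units, each with both 15.5 dpc arrays above both 13.5 dpc arrays. Zbtb20 A to D stood between 0.60 and 0.74, also without overlap, and F at -0.21 ± 0.19. Zbtb20 B and E are listed for 1 shared source sequence and differed in this step, with 0.64 ± 0.23 for B. The Bcl11b probe sets gave 0.75 ± 0.23 (adjusted p = 0.108, and 0.0324 with the trend and robust prior), 0.29 ± 0.21 and 0.33 ± 0.22. The values of Zeb2 went both ways, at -0.16 ± 0.29 in A, -0.58 ± 0.25 in B (adjusted p = 0.232) and 0.33 ± 0.32 in C. Over the 17 probe sets 14 lay above 0, with a median of 0.64 against -0.02 over all tested probe sets, and 13 of 17 had both 15.5 dpc arrays above both 13.5 dpc arrays, as did 22.5% of all tested probe sets. Zbtb20 F and Zeb2 B were lower without overlap, as were 24.1% of all. The 17 come from 5 genes, and probe sets of a gene share the RNA and are no replicates. This holds for the other counts over the 17 too.

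These calls were sensitive to leaving out 1 array. Without a cortex or cerebellum array the difference of Bcl11a A stayed at 1.09 log2 units. That of Neurod2 A stayed at 1.45 without a cortex array, so that in those fits only standard errors and p-values moved. Without the paternal-7 array at 13.5 dpc, limma called 0 of 17 member probe sets and 0 of all 13221, and without the paternal-7 array at 15.5 dpc it called 0 of 17 and 54 in all. Without any 1 array the call of Bcl11a A was lost (adjusted p between 0.0653 and 0.227), that of Neurod2 A held in 3 of 8 such fits (0.0482 to 0.0939), and that of Zbtb20 E in 6 of 8 (0.0282 to 0.0806), with differences of 0.86 to 1.32, 1.35 to 1.55 and 1.68 to 2.14 log2 units. The call of Bcl11a A was also lost with median centring (adjusted p = 0.0530), a floor of 1 (0.0709), a pseudocount of 16 (0.0620) and no filter (0.0899).

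Markers of neurons in general rose over the same step. Of 12 listed genes 5 had a probe set and 4 were tested, and 3 of these rose, namely the microtubule gene Map2 (1.20 ± 0.26, adjusted p = 0.0470), the nuclear neuron marker Rbfox3 (1.06 ± 0.23, adjusted p = 0.0482) and the synaptic vesicle gene Syt1 (1.12 ± 0.21, adjusted p = 0.0339). Their summed signals were 34483 and 39611 units (paternal-7 and maternal-7) at 15.5 dpc and 15362 and 22365 at 13.5 dpc. Of 9 markers of meninges and mesenchyme 3 had a probe set, summing to 600.2 and 526 units at 15.5 dpc and 3289 and 3025 at 13.5 dpc. Most of that sum came from Prrx1, a factor of limb and head mesenchyme, at -2.90 ± 0.23 (adjusted p = 0.00579). Choroid plexus markers (3 of 8) summed to 50653 and 58548 units at 15.5 dpc and 24815 and 37443 at 13.5 dpc. The part of these tissue differences in the members' age differences was not tested.

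Between the embryonic and the neonatal contexts, probe sets of Zbtb20 were called higher, through their cortex arrays. In all 6 Zbtb20 probe sets the mean log2 signal in cerebellum lay below that at 15.5 dpc, by 0.03 in D to 0.56 in B. Against the embryonic mean, cortex stood at 1.19 in A, 2.11 in C, 3.74 in D and 2.29 log2 units in E, and cerebellum at 0.19, 0.23, 0.33 and 0.54 in the same order. These cortex arrays are the ones on which the genes were selected as high, so that the stage values are no separate evidence of a rise with stage. In limma, 4 of 17 member probe sets were called higher in the mean of the neonatal contexts than in the mean of the embryonic ones, all of them from Zbtb20, and 0 were called lower, against 14.3% of all tested probe sets called higher, 16.4% called lower and 30.7% in all. Zbtb20 D differed by 2.04 ± 0.18 (at least 1.80-fold), but it exceeded the array median only on the 2 cortex arrays, and so entered the test through the group where it is high, and its call is a description. Zbtb20 E differed by 1.41 ± 0.15 (adjusted p = 0.00160), C by 1.17 ± 0.13 (adjusted p = 0.00195) and A by 0.69 ± 0.18 (adjusted p = 0.0280). The neonatal and embryonic arrays overlapped in each, since cerebellum signals of E lay below those at 15.5 dpc and those of A, C and D overlapped them. B stood at 0.39 ± 0.16 (adjusted p = 0.106, and 0.0472 with median centring) and F at 0.01 ± 0.13, a value that turned to -0.0029 when signals were floored at 1.

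Without any 1 array the calls of Zbtb20 C, D and E held in 8 of 8 fits, while that of A held in 2 of 8 (adjusted p between 0.0321 and 0.0997), and was lost with quantile normalization (0.0742) and with no filter (0.0550). Astrocyte markers moved with this contrast too, since 4 of 4 tested markers were called higher, among them the glutamate transporter genes Slc1a2 (1.13 ± 0.16, adjusted p = 0.00385) and Slc1a3 (1.15 ± 0.15, adjusted p = 0.00273). Their summed signals were 14197 to 16546 units in the neonatal and 5236 to 9180 in the embryonic arrays, and their part in the Zbtb20 difference was not tested.

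For the remaining members no call was made between stages, apart from alternatives for Zeb2 A. Bcl11a A and B stood at -0.35 ± 0.17 and -0.28 ± 0.20 log2 units and C and D at 0.37 ± 0.20 and 0.26 ± 0.23. Bcl11b A, B and C lay between -0.08 and 0.06 and Neurod2 A at -0.13 ± 0.13, and these signs depend on the scaling, since median centring of the arrays gave 0.10 for Bcl11b B, 0.15 for Bcl11b C and 0.04 for Neurod2 A, and quantile normalization -0.11 for Bcl11b A. Zeb2 A stood at 0.56 ± 0.21 (adjusted p = 0.0799), and passed the test with the trend and robust prior (0.0401) and without the maternal-7 array at 13.5 dpc (0.0485, log2 difference 0.74). Zeb2 B stood at -0.41 ± 0.18 and C at 0.03 ± 0.22. The median of all tested probe sets in this contrast was -0.16, and 0.02 with median centring, so that values of this size are not told from a shift of whole arrays. Of all called probe sets 46.5% were higher in the neonatal contexts, against 69.4% with median centring.

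**Figure D2:**
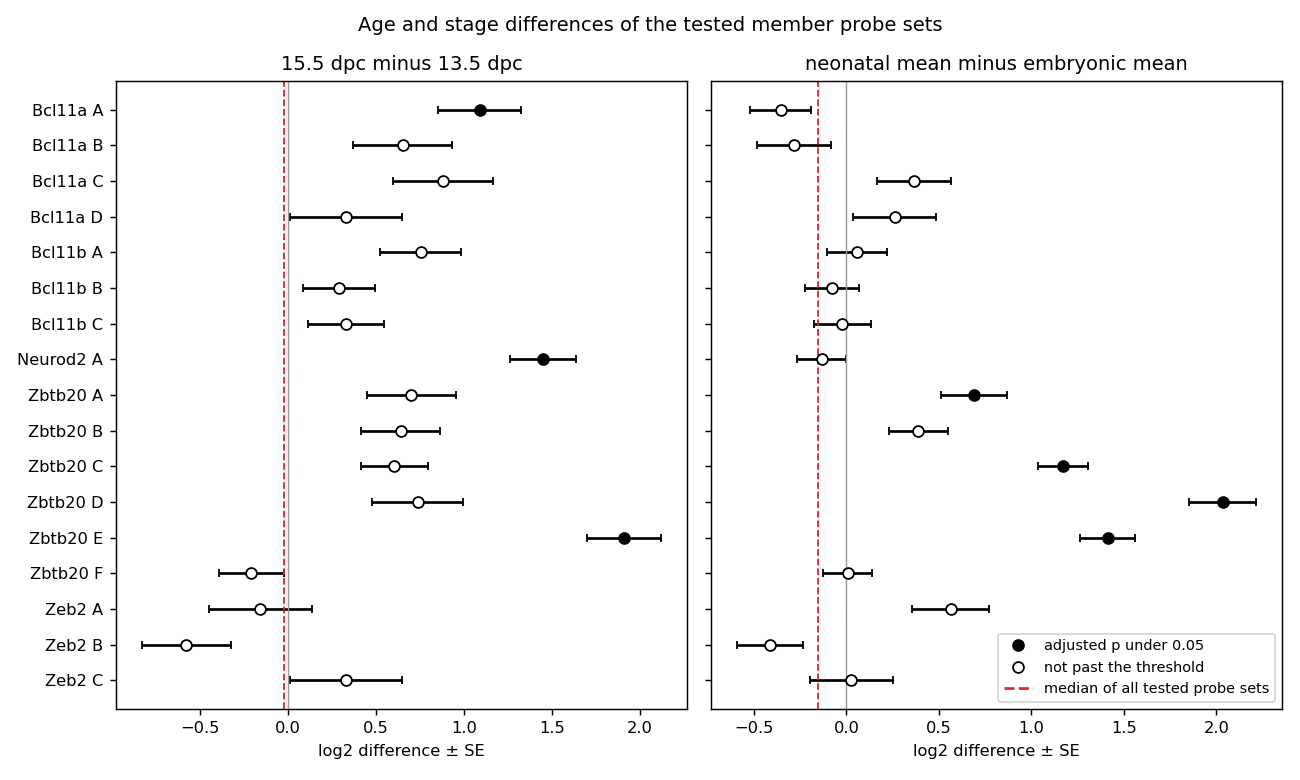
Log2 differences of the 17 tested probe sets with their moderated standard errors, 15.5 minus 13.5 dpc on the left and the neonatal minus the embryonic mean on the right. Filled points passed an adjusted p of 0.05 and the dashed lines are the medians of all tested probe sets, -0.02 and -0.16. Zbtb20 E passed in both contrasts (1.91 and 1.41), and Bcl11b lies near 0 on the right.

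No difference between the duplications was detected in the members. With limma, 0 of 17 probe sets differed between paternal-7 and maternal-7 arrays (smallest adjusted p = 0.578, and 0 at an unadjusted p under 0.05), where 0.00756% of all tested probe sets, 1 in number, were called. The log2 differences ran from -0.44 to 0.21 with a median of -0.11, against 0.01 over all tested probe sets, and 4 of 17 lay above 0. The lowest was Bcl11a C at -0.44 ± 0.20 (lower in 3 of 4 contexts), followed by Bcl11a A at -0.38 ± 0.17 (lower in 3 of 4) and Zeb2 C at -0.36 ± 0.22 (lower in 2 of 4). Zbtb20 F was higher in 4 of 4 contexts, as were 9.67% of all tested probe sets, and 0 of the 17 were lower in all 4, against 9.08% of all.

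In 6 of 17 probe sets both embryonic pairs had one sign and both neonatal pairs the other, as in 15.3% of all tested probe sets, and the differences were widest in Zeb2 C, Zeb2 A and Bcl11a B. Zeb2 C differed by -0.80 log2 units at 13.5 dpc and -0.90 at 15.5 dpc, and by 0.20 in cortex and 0.05 in cerebellum. Its paternal-7 signals at 13.5 dpc (174 units) and 15.5 dpc (224 units) lay below the array median, as did both cerebellum signals. Signals below that median were treated as background, so the embryonic values of Zeb2 C set a signal against background. Zeb2 A gave -0.78, -0.56, 0.23 and 0.15, and Bcl11a B -0.66, -0.56, 0.29 and 0.12 in the same order. Tested as a difference of the duplication effect between neonatal and embryonic contexts, these were 0.97 ± 0.24, 0.86 ± 0.24 and 0.81 ± 0.24 log2 units. None passed the adjustment over all probe sets (limma adjusted p = 0.483, 0.4995 and 0.5004), and 3 of 17 had an unadjusted p under 0.05, beside 1209 of all 13221, of which 0% were called. Zbtb20 C had the same signs at sizes of 0.0848 to 0.18 log2 units, and Bcl11b C and Neurod2 A had the opposite ones, with interactions of -0.43 ± 0.26 and -0.24 ± 0.24. Of the other probe sets, Zeb2 B did not follow its gene, at 0.32, 0.12, 0.38 and -0.48. The embryonic paternal-7 arrays also had the highest medians, 277.9 and 285.7 units against 257.1 and 261.4 in the maternal-7 ones. Over all alternatives, median centring included, the interaction of Zeb2 C ran from 0.89 to 1.17 log2 units. That of Zeb2 A ran from 0.75 to 0.98 and that of Bcl11a B from 0.73 to 0.94. The part of the array medians in the pair differences was not tested as such.

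**Figure D3:**
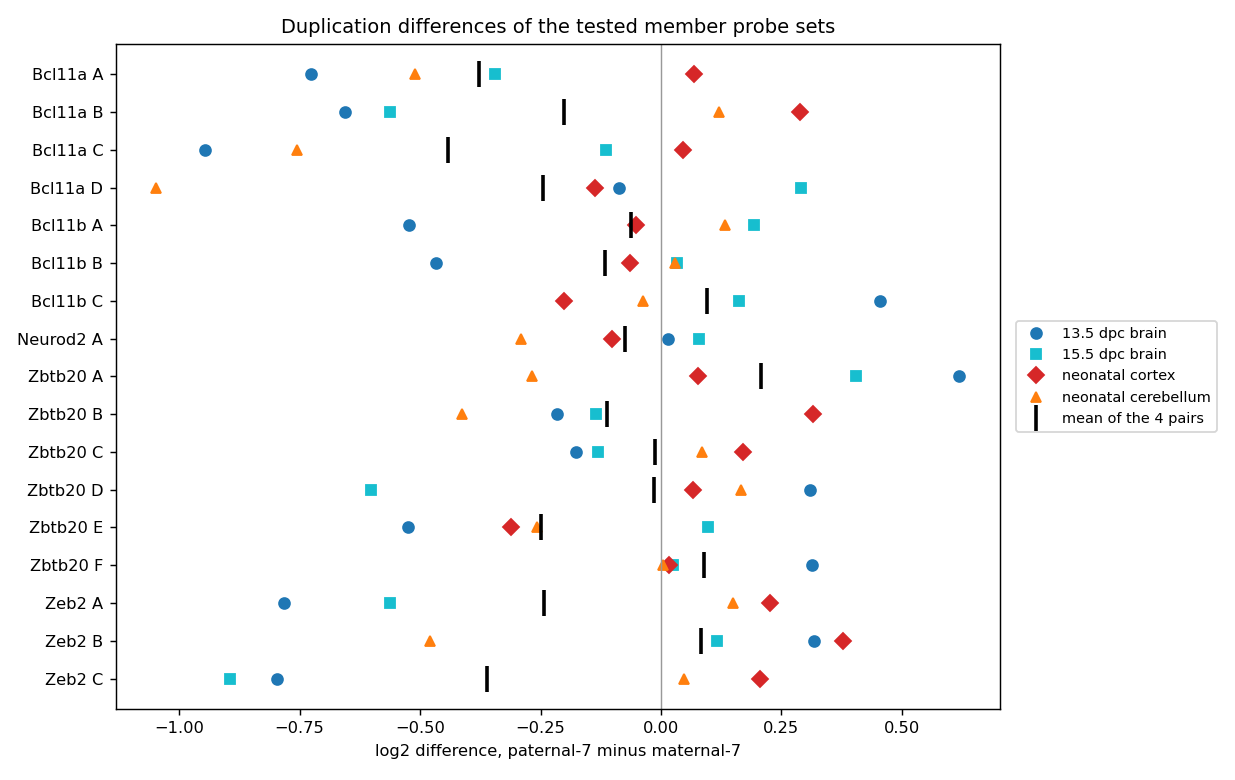
Log2 difference between the paternal-7 and the maternal-7 array in each context for the 17 tested probe sets, with the mean of the 4 pairs as a black bar. Zeb2 A, Zeb2 C and Bcl11a B have both embryonic pairs (blue and cyan) below 0 and both neonatal pairs (red and orange) above it, and the means run from -0.44 to 0.21.

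Agreement between probe sets of a gene was measured as the root mean square difference of their log2 profiles over the 8 arrays, each centred on its own mean, so that 0 means identical courses. The Bcl11b pairs were the closest, at 0.18 to 0.30. Bcl11a A and B differed by 0.24 and C and D by 0.37, while A and D differed by 0.71. Zbtb20 pairs ran from 0.31 (A and B) to 1.43 (D and F), and Zeb2 pairs from 0.45 (A and C) to 0.89 (A and B). The median over the 27 pairs of tested probe sets was 0.51, against 0.40 over 4025 pairs in the 2032 genes that have several. The transcript forms that single probe sets detect were not analysed here.

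By the same measure, members were among the closest probe sets to other members. The profiles hold the cortex and cerebellum arrays on which the genes were selected, so that closeness between members was in large part fixed by that choice. Of 9768 candidates from other genes, those nearest to Bcl11a A were Neurod2 A (0.32), a probe set of Nxph2, a secreted neurexophilin (0.33), and Bcl11b A (0.33), where the median candidate was at 0.96. Nearest to Bcl11b A were Plxna2, a semaphorin receptor gene (0.26), Bcl11a B (0.27) and Lzts1 (0.29), with a median of 0.84. Neurod2 A had Mpped1 at 0.18, Tmem74 at 0.20 and Nxph2 at 0.25. Nearest to Zbtb20 A, which had a flatter course, were the receptor gene Gpr6 (0.21), Homer1, a scaffold gene of excitatory synapses (0.23), and the cyclin gene Ccny (0.24). Zeb2 A had no candidate closer than another Plxna2 probe set at 0.36, followed by the ephrin receptor gene Epha4 (0.44) and Bcl11b B (0.44). At 15.5 minus 13.5 dpc, the Mpped1 probe set stood at 1.82 and the Tmem74 probe set at 1.29 log2 units, beside 1.45 for Neurod2 A. These are descriptions over 8 arrays of 4 contexts.

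The wider list of 42 transcription factors of cortical projection neurons, the members included, had 25 genes on the array and 24 tested, each taken by its brightest tested probe set. Between the embryonic ages 4 of 24 rose and 0 fell (16.7% called, against 6.59% of all), with a median of 0.40 against -0.02 over all tested probe sets. Beside Neurod2 and Bcl11a these were Sox11 (1.02 ± 0.18, adjusted p = 0.0307), a factor of young neurons, and the POU factor Pou3f2 (0.97 ± 0.18, adjusted p = 0.0334). Cux2, a factor of upper-layer neurons, stood at 1.26 ± 0.34 and Sox5, a factor of deep-layer neurons, at 0.85 ± 0.25 without passing the test. Without passing it, Pou3f3 stood at 0.78, Rorb at 0.72, Sox4 at 0.62, Tshz3 at 0.54 and Emx1 at 0.27, Otx1, Nfib, Nr4a2, Ldb2 and Emx2 between 0.01 and 0.18, and Tshz2, Cux1, Foxp2, Foxp1 and Nfia between -0.24 and -0.13. Tle4 was too dim to test.

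**Figure D4:**
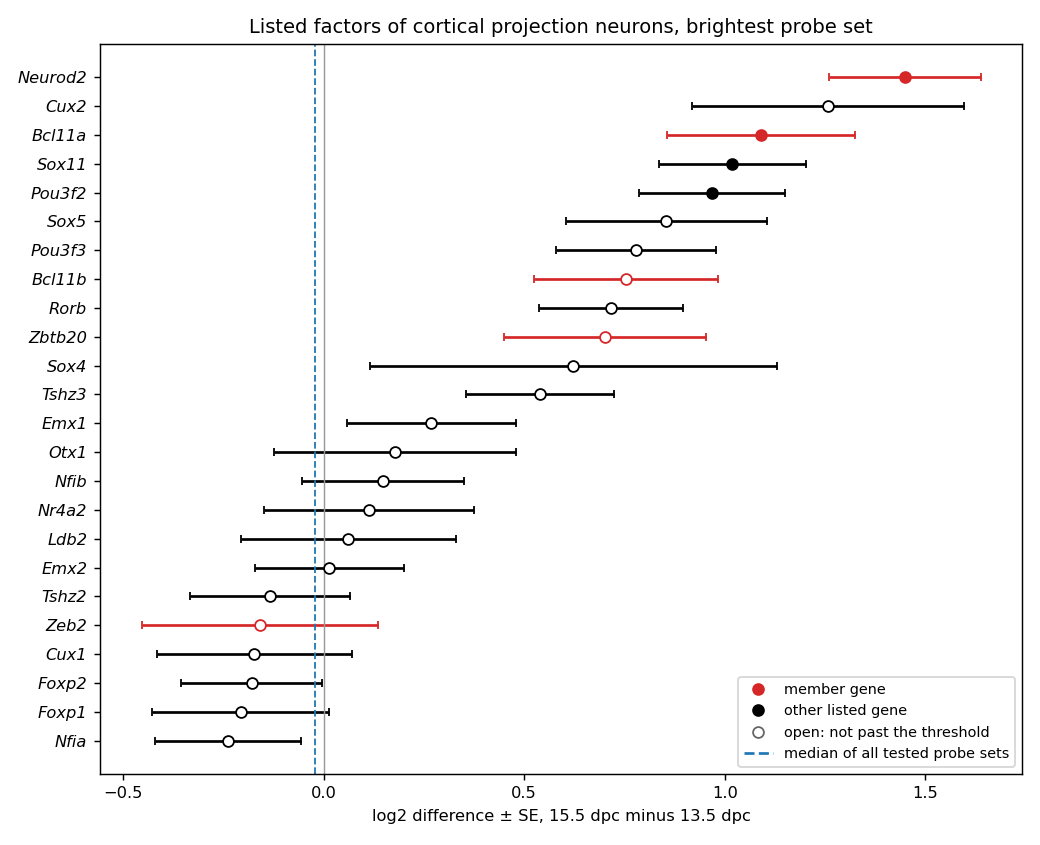
Log2 difference between 15.5 and 13.5 dpc with its standard error for the brightest probe set of the 24 tested factors of the list. Members are in red, filled points passed an adjusted p of 0.05, and the dashed line is the median of all tested probe sets, -0.02. Neurod2 (1.45) is at the top and Zeb2 (-0.16) stands among the factors at or below 0.

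Between stages, 5 of the 24 factors rose and 1 fell (25% called, against 30.7% of all tested probe sets), with a median of 0.08 against -0.16. Beside Zbtb20 these were the adaptor gene Ldb2 (0.86 ± 0.19, adjusted p = 0.0165), Rorb, a nuclear receptor of layer 4 (0.82 ± 0.13, adjusted p = 0.00507), Pou3f2 (0.80 ± 0.13, adjusted p = 0.00572) and Foxp2 (0.40 ± 0.12, adjusted p = 0.04999, just past the threshold). Emx2, a factor of cortical progenitors, fell by 0.61 on the log2 scale (adjusted p = 0.0162). Between the duplications 0 of 24 were called (limma, 6 of 24 above 0). Their cortex minus cerebellum differences had a median of 0.51, against -0.01 over all tested probe sets, and 20 of 24 were above 0. Both the median and the count include the members, which were selected on this difference, and are a description only. Apart from the members the highest were Sox5 at 1.17, Nfib, a factor of deep-layer neurons and glia, at 1.03 and Sox11 at 0.86, and the lowest was Pou3f2 at -0.25. Of 8 tested markers of projection neurons that are no factors, 2 rose between the embryonic ages (25%, against 6.59% of all called). They were the adhesion gene Cntn2 (1.26 ± 0.21, limma adjusted p = 0.0266) and the kinase gene Camk2a in its brightest probe set (1.13 ± 0.24, adjusted p = 0.0454). Between stages 3 of the 8 rose and 1 fell (50%, against 30.7% of all called). The 3 were the netrin receptor gene Unc5d (1.59 ± 0.17), Camk2a (1.31 ± 0.17) and Mdga1 (1.16 ± 0.15), and the one that fell was Reln, made by the first neurons of the cortical surface, by 0.64 (adjusted p = 0.0466).

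Genes of proteins that work with the members passed the test in both directions. Of 30 listed co-repressor, chromatin and partner genes 14 had a probe set and 13 were tested. Between 13.5 and 15.5 dpc 0 rose and 2 fell (15.4% of the 13, against 6.59% of all tested probe sets called), the Smad gene Smad3 by 1.09 (adjusted p = 0.0257) and Tcf12, a helix-loop-helix partner of Neurod factors, by 1.49 on the log2 scale (adjusted p = 0.0339). Between stages Arid1b (0.58 ± 0.13, adjusted p = 0.0181) and Bcl7c (0.53 ± 0.13, adjusted p = 0.0252), both of the BAF chromatin remodelling complex, rose and the histone deacetylase gene Hdac2 fell by 0.63 (adjusted p = 0.0138), which made 23.1% of the 13, against 30.7% of all. The cortex minus cerebellum values of the 13 had a median of 0.08 log2 units, and the members, selected on this difference, are not compared with them.

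The remaining lists show what else changed in the tissues from which the members were measured, with the same test. Over all tested probe sets, that test called 6.59% for age and 30.7% for stage. Between the embryonic ages, Drd1 (2.02 ± 0.25) rose among 8 tested striatum markers, Gad2, which makes the transmitter GABA (1.49 ± 0.24), among 3 interneuron markers, and Slc4a4 (0.93 ± 0.18) among 4 astrocyte markers. Kcnj13 (1.03 ± 0.19) rose among 3 choroid plexus markers, while Gli3, a hedgehog pathway factor of progenitors, stood at -0.92 ± 0.19 and fell among 4 progenitor markers. Between stages, Pde10a (1.74 ± 0.28), Drd1 (1.08 ± 0.18) and Gng7 (1.05 ± 0.14) rose among the striatum markers, and Gad2 (1.27 ± 0.17) rose and Maf (-0.64 ± 0.16) fell among the interneuron markers. Of 6 hippocampus markers Fibcd1 (0.63 ± 0.16) and Prox1 (0.45 ± 0.13) were called higher beside Zbtb20. Prox1 exceeded the array median on cortex arrays only (413 units paternal-7 and 392 maternal-7). It so entered the test through the group where it is high, and its call is a description. All 4 general neuron markers rose, from Nefl (0.75 ± 0.13) to Syt1 (1.59 ± 0.15). Rfx4 (0.81 ± 0.16) and Slc1a3 rose and Gli3 (-0.85 ± 0.13) and Top2a (-0.71 ± 0.21), a topoisomerase gene of dividing cells, fell among the progenitor markers. Top2a exceeded the array median on embryonic arrays only, so that its call is a description as well. Slc4a4 (1.49 ± 0.12) and Aqp4 (1.03 ± 0.25) were the other astrocyte markers that rose, Gpr17 (2.47 ± 0.35) rose among 2 oligodendrocyte markers, and Prrx1 (-1.83 ± 0.16) fell among 2 mesenchyme markers. No call was made for age or stage among 4 cerebellum markers, 2 hypothalamus markers and 1 endothelium marker, and 0 microglia and 0 red blood cell markers were tested.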

How the data were processed

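Each sample has 1 Affymetrix 430B array, for which the authors deposited linear signal intensities made with MAS5, per the submitters' processing notes, which name no version. Per the labels' protocols, 9 µg of Trizol-extracted, column-purified RNA was labelled. The values hold no detection calls, and MAS5 works array by array, so that dim signals are noisy. No further normalization was made, and depth has no meaning for arrays, whose number limits the precision.

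After removal of 64 control probe sets, 22511 remained, of which 14661 had 1 gene symbol in the platform annotation, 245 several and 7605 none. Older symbols were replaced using RefSeq's table for GRCm38.p6. All fits used log2(signal + 58.5). This pseudocount, the middle value of the 8 arrays' 20th percentiles, understates the change of dim probe sets. Probe sets above the array median on at least 2 of 8 arrays were tested (13221, or 58.7%), and a signal below that median was treated as background. Where 1 side was below it on all arrays, "at least N-fold" divides the bright arrays' geometric mean by that of the dim arrays, each raised to its array median if lower.

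limma 3.58.1 (R 4.3.3) fitted additive terms for context and duplication, which left 3 residual degrees of freedom, or 2 for duplication by stage, with Benjamini-Hochberg adjustment over all tested probe sets and a threshold of 0.05. Errors printed after log2 differences are moderated standard errors. The fit was also run on simulated data with independent noise and no duplication effect that varies between contexts. That run therefore cannot check the additive form of the fit. Members and lists were chosen with earlier results of these data known. Named are all member probe sets, the 3 nearest probe sets of other genes to the brightest one of each member, the measured factors of the list, and called genes of the lists. Alternatives were 2 other normalizations, 2 other pseudocounts, 2 other filters, another variance prior, and leaving out each array.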

Additional observations from a re-analysis of the deposited data

Results flagged for a closer look

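In Zbtb20 F the pair at 13.5 dpc stood apart from the 3 others, with a log2 difference of 0.31 between the paternal-7 and the maternal-7 array, against 0.025 at 15.5 dpc, 0.016 in cortex and 0.0049 in cerebellum. The gap to the nearest other pair exceeded Dixon's 95% critical value for 4 values. The paternal-7 array read 358 units and the maternal-7 array 277, both near the array medians. Chance marks about 1 in 20 such groups, and 1 of 20 member probe sets was marked.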

How the results depend on the processing

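The alternatives covered scaling, pseudocount, filter, variance prior and leaving out each array. Zbtb20 C, D and E kept their stage call in every alternative that tested the probe set. No other member call of the reported fit, for age or stage, did so. These stage calls rest largely on the cortex arrays used to select the genes, and are no separate evidence of a rise with stage. Against the embryonic mean, cortex stood at 2.11, 3.74 and 2.29 log2 units in C, D and E, and cerebellum at 0.23, 0.33 and 0.54. D exceeded the array median on cortex arrays only, yet stayed tested when either was left out, so its call is a description. The labels carry no replicate numbers, so no fit with a replicate block was made. The fit reported compares the duplications within each context and the contexts within each duplication.

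For age, limma called 207 probe sets with no filter, 459 with a floor of 1 and 1409 with the trend and robust prior, against 871, and 0 to 522 without 1 array. For the duplications it called 0, 0 and 3 with these, and 2 with the strict filter, against 1, and 0 to 2 without 1 array. For stage it called 1827 to 3523 without 1 array. Among the member probe sets, leaving out 1 array gave 0 to 2 calls for age, against 3, and 3 to 4 for stage, against 4. Over the other alternatives the member calls ran from 2 to 4 for age and from 3 to 5 for stage. Calls were gained for Bcl11b A in age (adjusted p = 0.0324) and Zeb2 A in stage (0.0401) with the trend and robust prior, for Zbtb20 B in stage with median centring (0.0472) and for Zeb2 A in stage without the maternal-7 array at 13.5 dpc (0.0485). The contrast of duplication by stage had 0 calls under all of these. When 1 array of an age is left out, the other is assumed to vary like the remaining contexts.

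Single values near 0 changed sign. For the duplications, Zbtb20 D (-0.01) went to 0.0206 with a floor of 1 and 0.0010 with a pseudocount of 16. For stage, Bcl11b A went to -0.11 with quantile normalization, Bcl11b B, Bcl11b C and Neurod2 A to 0.0970, 0.15 and 0.0414 with median centring, and Zbtb20 F to -0.0029 with a floor of 1. For duplication by stage, Zbtb20 E (-0.07) went to 0.0369 with quantile normalization, 0.0523 with median centring, 0.16 with a floor of 1 and 0.0534 with a pseudocount of 16.

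Leaving out 1 array in turn gave ranges that cross 0, in log2 units. For the duplications, Bcl11a D from -0.42 to 0.0222, Bcl11b A from -0.15 to 0.0911, Bcl11b C from -0.0254 to 0.19, Zbtb20 C from -0.0741 to 0.0421, Zbtb20 D from -0.12 to 0.18 and Zeb2 B from -0.015 to 0.27. For age, Bcl11a D from -0.0291 to 0.68, Zeb2 A from -0.52 to 0.20 and Zeb2 C from -0.0282 to 0.69. For stage, Bcl11a D from -0.00647 to 0.53, Bcl11b A from -0.0973 to 0.21, Bcl11b B from -0.19 to 0.0384, Bcl11b C from -0.14 to 0.0983, Zbtb20 F from -0.0683 to 0.0802 and Zeb2 C from -0.16 to 0.22. For duplication by stage, Bcl11a C from -0.24 to 0.59, Bcl11b A from -0.15 to 0.56, Bcl11b B from -0.0503 to 0.45, Zbtb20 B from -0.24 to 0.49, Zbtb20 D from -0.19 to 0.72, Zbtb20 E from -0.38 to 0.24 and Zeb2 B from -0.70 to 0.16.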
